A study of Rattus norvegicus with 48 samples.

Results

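The interleukin-1 (IL-1) and interleukin-18 (IL-18) family was followed through 48 RNA-seq libraries of primary rat mixed cortical cultures, as 10 genes of 30211 in the deposited table. The genes were taken by symbol: the ligands Il1a, Il1b, Il18 and Il33, the receptor antagonist Il1rn, and the receptor genes Il1r1, Il1rap, Il1r2, Il18rap and Il1rl1. IL-1α and IL-1β act through the receptor encoded by Il1r1 together with the accessory chain encoded by Il1rap, and the signal runs through MyD88 and IRAK kinases to NF-κB. The receptor antagonist occupies the same receptor without signalling, and the receptor encoded by Il1r2 is a decoy. IL-1β and IL-18 are made as precursors that caspase-1 cleaves after an inflammasome assembles, and in the brain microglia are a known source of IL-1β.

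Cultures were prepared from Sprague-Dawley fetuses of embryonic day 18 and were used after 21 days in vitro. The 16 groups held 3 libraries each. Tat, the HIV-1 transactivator protein (recombinant, residues 1 to 86), was given at 6 ng/mL for 48 h, and cocaine at 25 µM for 24 h. The small molecules were 4-octyl itaconate (4OI, a cell-permeable itaconate ester) at 250 µM, Amlexanox at 25 µM (an inhibitor of the kinases TBK1 and IKKε), Tazemetostat at 3 µM (an EZH2 inhibitor) and Senicapoc at 1 µM (a blocker of the potassium channel KCa3.1), each given for 48 h in the same step as Tat. The cocaine step of 24 h followed. Each molecule was tested alone, with Tat, and with Tat followed by cocaine, beside Control, Cocaine, Tat and Tat-Cocaine cultures. Groups without an agent had a control treatment in its place, which the labels do not describe further, and the 4OI stock was made in DMSO.

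The labels call the cells neurons, but the cultures are mixed and markers of several cell types were present. Summed over 10 microglial markers, the libraries held 498 to 4318 CPM (the reads of a gene scaled to a common library total), with none of the markers at 0 throughout any group. The 7 astrocyte markers summed to 5410 to 13240 CPM and the 8 neuronal markers to 884 to 4009 CPM, whereas the 4 markers of T and NK cells did not exceed 0.0992 CPM. Libraries held 17.5 to 29.1 M reads on genes. In bulk RNA of this kind, fewer cells of a type and less RNA per cell cannot be told apart. The labels do not say whether the 3 libraries of a group came from separate cultures, so the p-values measure the spread between these libraries, which may be technical. Replicate 3 of the Cocaine group stood apart, with 24858 CPM in 6 oligodendrocyte markers against 165 to 2244 CPM in the other libraries.

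The promoters of the genes that rose most, Il1b and Il1rn, and of Il1a, the neighbour of Il1b on chromosome 3, are shown so that their sequence can be set beside the responses that follow. They cover the 250 bases before the annotated start in RefSeq (build GRCr8), read 5′ to 3′ on the strand of the gene. Il1b lies on the minus strand with its promoter at chr3:137036582-137036831, Il1a on the minus strand at chr3:136990018-136990267, and Il1rn on the plus strand at chr3:27520072-27520321. Capitals mark matches to GGG, any 2 bases, TT, any base and CC (NF-κB type, either strand), to TGANTCA (AP-1 type, either strand) or, on the strand of the gene, to the box of core promoters TATAAA.
Il1b promoter: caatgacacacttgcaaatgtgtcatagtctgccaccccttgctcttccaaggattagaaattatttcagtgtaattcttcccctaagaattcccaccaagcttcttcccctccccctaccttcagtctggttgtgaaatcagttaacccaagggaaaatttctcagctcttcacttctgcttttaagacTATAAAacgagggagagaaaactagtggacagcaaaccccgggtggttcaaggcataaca
Il1a promoter: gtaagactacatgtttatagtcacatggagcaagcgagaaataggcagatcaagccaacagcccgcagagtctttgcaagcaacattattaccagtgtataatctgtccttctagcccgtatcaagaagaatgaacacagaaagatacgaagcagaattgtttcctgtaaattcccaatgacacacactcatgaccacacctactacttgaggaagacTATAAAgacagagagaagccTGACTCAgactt
Il1rn promoter: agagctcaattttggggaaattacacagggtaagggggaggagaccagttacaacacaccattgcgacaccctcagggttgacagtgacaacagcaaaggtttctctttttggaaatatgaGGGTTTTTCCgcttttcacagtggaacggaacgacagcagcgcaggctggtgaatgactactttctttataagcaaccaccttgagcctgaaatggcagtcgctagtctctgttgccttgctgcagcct

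The Il1rn promoter held 1 NF-κB-type match, GGGTTTTTCC, that began 129 bases before the start. The Il1a promoter held TATAAA 32 bases and TGACTCA 12 bases before the start, and the Il1b promoter held TATAAA 60 bases before it. Among 33469 RefSeq promoters of the same length, 4.36% held an NF-κB-type match, 6.34% an AP-1-type match and 8.06% TATAAA, and no 2 of these matches overlapped in the 3 promoters printed. Promoters were found for 8 of the 10 genes, which left out Il1r2 and Il18rap. Il1rap had the NF-κB-type match GGGGCTTCCC on the strand opposite the gene in both of its annotated promoters, which overlap, and 1 of 2 Il33 promoters held TATAAA, so matches occurred in genes that responded to Tat and in genes that did not pass the test. A match is a description of letters in the window and not evidence of binding.

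Tat raised 6 of the 10 genes and lowered none (limma, Benjamini-Hochberg false discovery rate, FDR, under 0.05), where 21.3% of the 15890 genes tested were called and 14.6% were higher. Under quantile normalization the share of higher genes among all called fell from 68.5% to 54.9%, and the count of family genes stayed at 6 higher. The median log2 fold change over the 10 genes was 1.62, beside 0.01 over all genes tested. Levels are in CPM, and fold changes are differences of log2(CPM + 0.5), which understates the change of genes near 0.5 CPM.

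Il1b, the secreted cytokine of the inflammasome pathway, stood at 2.38, 5.93 and 5.27 CPM in Control replicates 1 to 3 and at 98.4, 107.8 and 36.97 CPM with Tat. Every Tat library lay above every Control library, and the log2 fold change was 3.96 ± 0.50 (SE, limma FDR 4.18e-07). Il1a, the form that is active without caspase-1 cleavage, rose from 1.27, 2.697 and 2.18 CPM to 9.73, 10.8 and 5.25 CPM (1.82 ± 0.40, limma FDR 0.00113). Its groups did not overlap either. Il18 rose from 3.55, 9.90 and 7.33 CPM to 22.7, 34.9 and 16.7 CPM (1.81 ± 0.41, limma FDR 0.00143), again without overlap. Il33, a nuclear alarmin that astrocytes and oligodendrocytes are known to make, behaved differently. It measured 51.6, 41.1 and 34.7 CPM in Control and 27.3, 76.4 and 63.0 CPM with Tat, with the highest and the lowest of these 6 libraries both in the Tat group (0.28, 95% interval -0.44 to 0.99, limma FDR 0.593).

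Il1rn showed the largest rise of the 10 genes. It stood at 1.42, 3.09 and 1.32 CPM in Control and 88.5, 154.9 and 58.6 CPM with Tat, without overlap (5.33 ± 0.54, limma FDR 3.78e-09). The log2 difference between Il1rn and Il1b in the same library moved from -1.03 ± 0.57 (SD, n = 3) in Control to 0.34 ± 0.43 with Tat. That shift of 1.37 gave an exact permutation p of 0.1 (two-sided), the smallest that 3 against 3 libraries allow. The 3 Tat libraries all lay above the 3 Control libraries in this difference. In the compound backgrounds the shift with Tat was 1.14 with 4OI, 1.06 with Tazemetostat and 1.01 with Senicapoc, each with an exact permutation p of 0.1, and 0.25 with Amlexanox (exact permutation p 0.7).

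Of the receptors, Il1r1, the signalling receptor, stood at 12.0, 12.2 and 21.7 CPM in Control and 47.4, 49.1 and 28.4 CPM with Tat (1.43 ± 0.34, limma FDR 0.00246). The groups did not overlap, although Control replicate 3 and Tat replicate 3 lay close to each other. Il18rap, the accessory chain of the IL-18 receptor, went from 0.498, 0.637 and 0.363 CPM to 3.09, 3.72 and 4.35 CPM (2.08 ± 0.27, limma FDR 7.05e-07). Il1rl1, the IL-33 receptor, measured 0.383, 0.441 and 0.953 CPM in Control and 3.40, 2.30 and 0.804 CPM with Tat. One Tat library lay inside the Control range and the gene did not pass (1.19, 95% interval 0.15 to 2.22, limma FDR 0.0939). Il1rap, the accessory chain shared by the IL-1 and IL-33 receptors, measured 12.53 to 20.9 CPM in Control and 19.4 to 29.7 CPM with Tat (0.42, limma FDR 0.317). The decoy gene Il1r2 was low, at 0.115 to 0.499 CPM in Control and 0.189 to 0.710 CPM with Tat (0.34, limma FDR 0.349). Il1r2 reached 0.5 CPM, the level of the filter, in only 13 of 48 libraries, Il1rl1 in 36 and Il18rap in 38, whereas the other 7 genes did so in all 48.

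**Figure D1:**
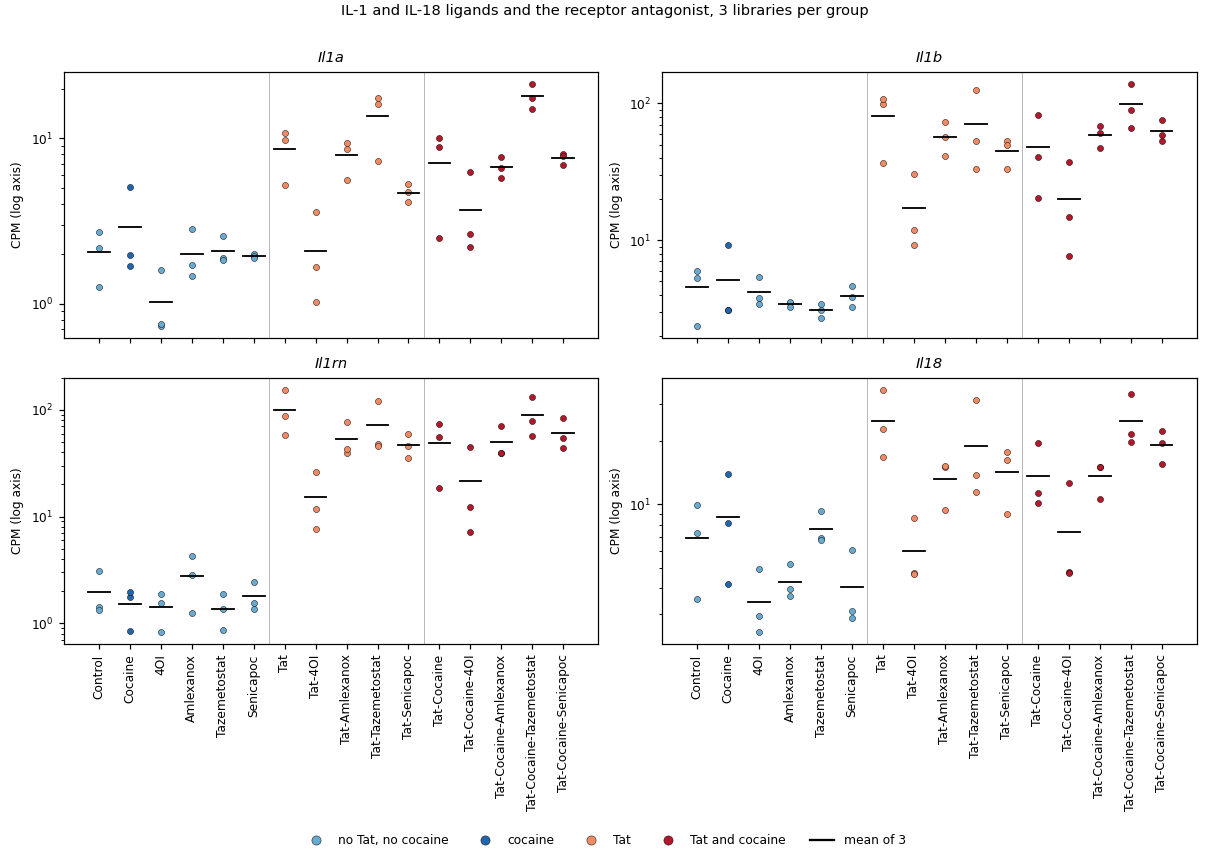
CPM (log axis) of Il1a, Il1b, Il1rn and Il18 in each of the 48 libraries (points), with the mean of 3 (lines), by group and coloured by Tat and cocaine. In the Tat groups Il1rn lies at 7.21 CPM or more in every library and at 4.31 CPM or less in every library without Tat, and the Tat-4OI and Tat-Cocaine-4OI groups sit below the other Tat groups in their means.

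Markers moved with Tat as well. Of 10 microglial markers 3 rose (Aif1, Itgam and Ptprc), where 14.6% of all genes were higher, and the summed list ranged from 1289 to 2227 CPM in Control and from 1613 to 2869 CPM with Tat, which overlap. Of 4 markers of border macrophages 3 fell (Cd163, Lyve1 and Pf4), beside 21.3% of all genes called in either direction. The sum of the 4 markers went from 499 to 559 CPM in Control to 208 to 306 CPM with Tat. Of 7 astrocyte markers 3 fell (Gfap, S100b and Gja1), beside the same share of 21.3%, and S100a8, the 1 neutrophil marker of 4 that could be tested, rose. No neuronal marker was called, but their sum ranged from 2468 to 3802 CPM in Control and from 1307 to 2450 CPM with Tat, without overlap, and the astrocyte sum from 9409 to 11567 CPM and from 6470 to 8837 CPM. The part of these markers in the rise of the family genes was not tested. Across the 30 libraries with Tat, Pearson's r on the log2 scale between a gene and the microglial sum was 0.89 for Il18, 0.85 for Il1b and Il1rn, 0.77 for Il1a and 0.21 for Il33. Over all 48 libraries it was 0.79 for Il18, 0.67 for Il1a, 0.52 for Il1b and 0.47 for Il1rn. In the same 30 libraries r with the border macrophage sum was 0.84 for Il1b, 0.81 for Il18, 0.79 for Il1rn and 0.74 for Il1a. Over all 48 libraries that r was near 0 or low, at -0.02 for Il1b, 0.26 for Il18, -0.11 for Il1rn and 0.21 for Il1a. With the neuronal sum r in the 30 libraries was -0.63 for Il1rn, -0.68 for Il1b and Il18 and -0.76 for Il1a. Over all 48 it was -0.50 for Il1rn, -0.59 for Il1b, -0.73 for Il18 and -0.71 for Il1a. These are descriptions across libraries that share treatments and depth.

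Taking all 30 libraries with Tat and all 18 without, Il1rn was above the highest Tat-free library in 30 of 30, Il1b in 29, Il1r1 in 28, Il1rl1 in 26, Il18rap in 25, Il1a in 22 and Il18 in 17. Il1r2 and Il33 exceeded the highest Tat-free library in 2 of 30 each, and Il1rap in 0 of 30. Such counts were not made for the other genes tested, of which 14.6% were higher in Tat against Control. They therefore do not show a trait particular to the family. The Il1rap ceiling was set by replicate 3 of the Cocaine group, at 69.0 CPM against 12.1 to 31.7 CPM elsewhere, which is the library with the high oligodendrocyte markers. Without that library, left out after seeing the data, the highest Tat-free level of Il1rap was 22.1 CPM and 26 of 30 Tat libraries lay above it, while the counts of the other 9 genes were the same. Il1rap was higher without overlap in Tat-4OI against 4OI (0.90, limma FDR 0.0677) and in Tat-Tazemetostat against Tazemetostat (0.71, 0.0975). The same held in Tat-Senicapoc against Senicapoc (25.3 to 29.5 beside 15.1 to 21.9 CPM) and in Tat-Amlexanox against Amlexanox (22.3 to 28.6 beside 18.4 to 22.1 CPM). It held as well in Tat-Cocaine against Control (23.6 to 29.4 beside 12.5 to 20.9 CPM). None of these passed the threshold in the fit of all libraries, and the Tat group overlapped Control. The share of all genes tested that separated in these comparisons was not counted, so the separations alone do not show a response of Il1rap. Neighbouring groups in the order of mean level overlapped in their libraries in nearly all cases, in 14 of 15 steps for Il1b and Il1rn, in 13 of 15 for Il1a and Il18rap, and in 15 of 15 for the other 6 genes.

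**Figure D2:**
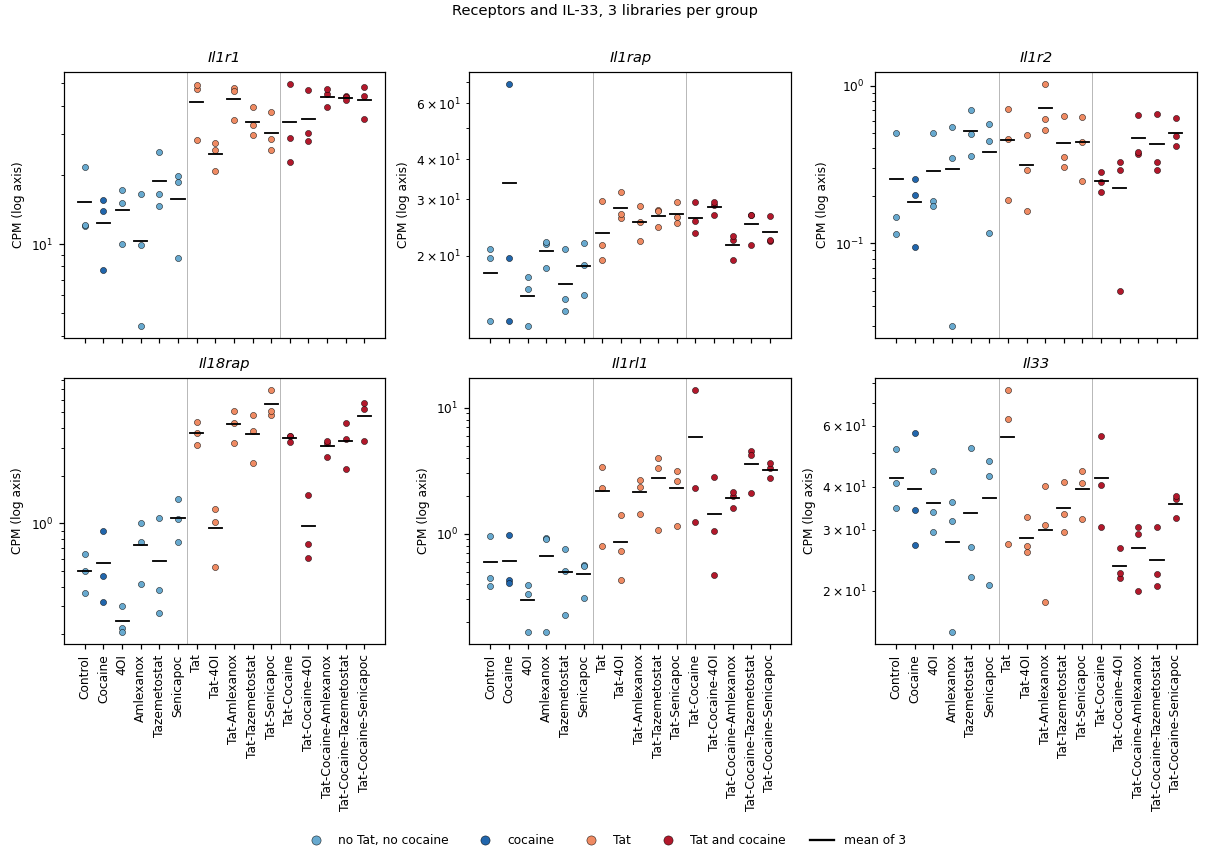
CPM (log axis) of the 5 receptor genes and Il33 in each library (points), with the mean of 3 (lines), by group. Il1r1 lies higher in the means of the Tat groups, and Il18rap in those of the Tat groups without 4OI. The Tat-4OI and Tat-Cocaine-4OI means of Il18rap (0.929 and 0.956 CPM) lie below that of Senicapoc alone (1.09 CPM). Il33 was called in no comparison of the fit of all libraries. Il1rap is at a median of 18.6 CPM without Tat and 26.3 CPM with Tat but was not called there either. The Amlexanox library listed at 0 CPM for Il1r2 is drawn at the lower edge.

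Cocaine was compared with Control and as an addition to Tat. Cocaine alone gave 0 called genes of 10 in limma (0.201% of all genes called), and 0 had an unadjusted p under 0.05. The share of all genes called was 10.9% without Cocaine replicate 1, 0.29% without replicate 2 and 0% without replicate 3. Tat-Cocaine against Tat also gave 0 genes in limma (0.0189% called), with 1 unadjusted p under 0.05, that of Il1rn. Il1rn stood at 18.7, 55.2 and 73.1 CPM in Tat-Cocaine and Il1b at 20.3, 40.7 and 82.3 CPM, so the libraries overlapped those of Tat for both genes. The log2 differences were -1.13 (95% interval -2.21 to -0.04, limma FDR 0.609) for Il1rn and -0.83 (-1.86 to 0.19, limma FDR 0.633) for Il1b. Averaged over the 5 Tat backgrounds with and without cocaine, 0 genes were called in limma and 0 had an unadjusted p under 0.05 (4.55% of all genes called), and the estimates ran from -0.26 for Il33 to 0.38 for Il1rl1.

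Against Control, Tat-Cocaine raised 6 genes and lowered none (14.9% of all genes called, 8.63% higher). Il1rn rose by 4.21 ± 0.54 (limma FDR 7.21e-07), Il1b by 3.13 ± 0.50 (3.55e-05) and Il18rap by 1.98 ± 0.27 (2.80e-06). Il1a (1.43, limma FDR 0.0132), Il1r1 (1.10, 0.0261) and Il1rl1 (1.95, 0.00787) also passed. Il1rl1 measured 1.23, 13.9 and 2.29 CPM, and without replicate 2 its difference was 1.05 (limma FDR 0.154). Il1a was not called without Control replicate 1 or Tat-Cocaine replicate 2 or 3 (limma FDR 0.0808 to 0.106), nor Il1r1 without Control replicate 1 or 2 or Tat-Cocaine replicate 3 (0.0963 to 0.183). Same-numbered libraries deviated together in this comparison and were taken as paired, a choice made from these data and not from the labels. With the number as a block in a fit of these 2 groups alone Il1rl1 was lost (limma FDR 0.0935) and Il1rap was gained (0.58, 0.0389). With the block in the fit of all 48 libraries Il18 was gained (0.98, limma FDR 0.0159).

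4OI lowered the Tat-treated levels of 5 of the 10 genes and raised none, where 15.6% of all genes tested were called and 9.48% were lower. Under quantile normalization the share of higher genes among all called went from 39.2% to 49.8%, and the count of family genes stayed at 5 lower. The median log2 fold change over the 10 genes was -1.24, beside -0.00 over all genes. Tat-4OI and Tat-Cocaine-4OI are compared with Tat and Tat-Cocaine, the groups that also carry the contrasts with Control, so the values of both are not independent.

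Il1rn stood at 7.65, 26.1 and 11.9 CPM in Tat-4OI, all below the lowest Tat library (-2.75 ± 0.54, limma FDR 0.000511). Il1b fell to 9.31, 30.6 and 11.8 CPM (-2.25 ± 0.50, limma FDR 0.00225), again below all Tat libraries, although replicate 2 came close to the lowest of them. Il18 fell to 4.74, 8.63 and 4.65 CPM (-1.95 ± 0.41, limma FDR 0.00112) and Il1a to 1.66, 3.60 and 1.02 CPM (-1.87 ± 0.40, limma FDR 0.0014). The mean levels of Il18 and Il1a in Tat-4OI were 6.00 ± 2.27 and 2.09 ± 1.34 CPM (SD, n = 3), beside 6.93 ± 3.20 and 2.05 ± 0.725 CPM in Control. With 4OI alone, the partner without Tat, they were lower, at 3.45 ± 1.29 and 1.03 ± 0.492 CPM, and neither gene was called between Tat-4OI and 4OI. Il18rap fell to 1.02, 1.24 and 0.535 CPM (-1.58 ± 0.27, limma FDR 0.00011).

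The remaining genes did not pass. Il1r1 measured 20.8, 27.5 and 25.7 CPM in Tat-4OI, all below the Tat libraries but close to the lowest of them (-0.71, 95% interval -1.41 to -0.02, limma FDR 0.146). Il33 measured 32.7, 25.9 and 26.9 CPM (-0.83, limma FDR 0.0988), Il1rl1 0.428, 1.40 and 0.730 CPM (-0.90, 0.220), Il1rap 31.7, 26.2 and 26.95 CPM (0.28, 0.540) and Il1r2 0.161 to 0.484 CPM (-0.21, 0.589). The 5 calls held without any 1 of the 6 libraries. In a fit of the 6 libraries alone Il1b had a limma FDR of 0.0554 and the other 4 were called.

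Microglial markers were lower in the same comparison. The summed list ranged from 711 to 1551 CPM in Tat-4OI, below the 1613 to 2869 CPM in Tat, and 2 of the 10 markers fell (Itgam by 1.201 and Csf1r by 1.19 on the log2 scale), where 9.48% of all genes were lower. Border macrophage markers fell in 3 of 4 (Mrc1, Cd163 and Lyve1), to a sum of 45.9 to 200.1 CPM. The neuronal sum moved the other way without overlap, to 2759 to 3495 CPM from 1307 to 2450 CPM in Tat, with none of its 8 markers called, and the astrocyte sum was 8587 to 10173 CPM beside 6470 to 8837 CPM, which overlap. Their part in the fall of the family genes was not tested.

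4OI on its own called 0 of the 10 genes in limma (3.15% of all genes called), with 1 unadjusted p under 0.05, for Il18 (-0.85, limma FDR 0.362). Il1b was at 3.42, 5.35 and 3.79 CPM with 4OI alone, within the range of Control. In the presence of 4OI, Tat still raised Il1rn (2.89 ± 0.54, limma FDR 0.000814), Il1b (1.75 ± 0.50, 0.0339) and Il18rap (0.91 ± 0.27, 0.0415), where 5.18% of all genes were called and 3.08% were higher. The Il1b call was lost without 4OI replicate 1 or 3 or Tat-4OI replicate 2 or 3 (limma FDR 0.0584 to 0.303). The Il18rap call was lost without any of 4OI replicates 1 to 3 or Tat-4OI replicates 1 and 2 (0.0589 to 0.250). The test of whether the Tat response itself differed with 4OI gave 0 called genes in limma (0.497% of all genes called), with 3 unadjusted p-values under 0.05. These were Il1rn (-2.44 ± 0.76, limma FDR 0.153), Il1b (-2.21 ± 0.71, 0.167) and Il18rap (-1.17 ± 0.38, 0.181).

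With cocaine present the fall with 4OI was called for 1 gene of 10 (7.36% of all genes called, 3.29% lower). Il18rap went from 3.24, 3.52 and 3.54 CPM in Tat-Cocaine to 0.608, 1.52 and 0.743 CPM in Tat-Cocaine-4OI (-1.48 ± 0.27, limma FDR 0.000419). Il1b measured 7.72, 37.1 and 14.8 CPM and Il1rn 7.21, 45.4 and 12.4 CPM, with replicate 2 inside the range of Tat-Cocaine. Their differences were -1.30 (95% interval -2.33 to -0.28, limma FDR 0.113) and -1.37 (-2.46 to -0.28, limma FDR 0.117). Altogether 6 genes had an unadjusted p under 0.05, all lower. Without Tat-Cocaine-4OI replicate 2 the count was 5, with Il1b (-1.89, limma FDR 0.0222), Il1rn (-2.10, 0.0123), Il18 (-1.38, 0.0455) and Il1rl1 (-1.75, 0.0463) added. Without Tat-Cocaine replicate 1 it was also 5, with Il1a, Il1b, Il1rn and Il1rl1 added (limma FDR 0.0296 to 0.0468). The microglial sum in Tat-Cocaine-4OI was 498, 1484 and 604 CPM, so replicate 2 was again the highest, and the part of microglial RNA was not tested.

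**Figure D3:**
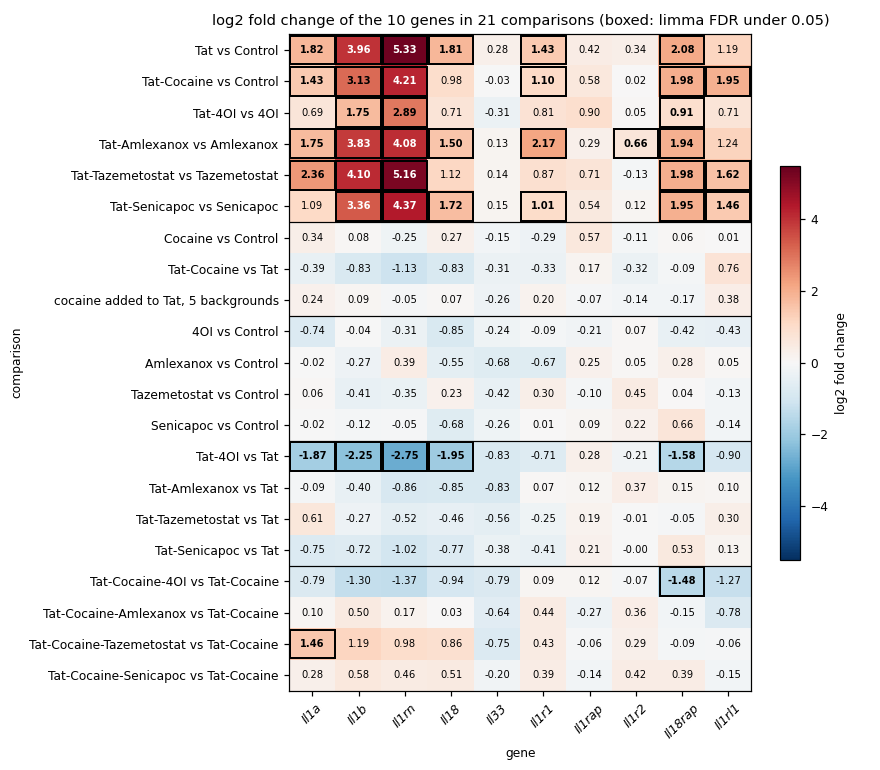
Differences of log2(CPM + 0.5) for the 10 genes (columns) in each comparison other than the tests of a changed response (rows), coloured from blue (lower) to red (higher), with limma FDR under 0.05 boxed in bold. The top 6 rows compare Tat and Tat-Cocaine with Control and each Tat-compound group with the compound alone, where Il1rn, Il1b and Il18rap are boxed in all 6, and the 4OI rows hold all 6 boxed falls.

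No family gene was called lower with any of the other 3 compounds in the fit of all libraries. Tat-Amlexanox against Tat called 0 genes in limma (0.837% of all genes called), with 2 unadjusted p-values under 0.05, for Il33 (-0.83) and Il18 (-0.85). Same-numbered libraries deviated together here and were taken as paired, a choice made from these data and not from the labels. With the number as a block in a fit of the 2 groups alone Il18 (limma FDR 0.0316), Il1rn (-0.86, 0.0356) and Il33 (0.0448) were lower. The block in the fit of all libraries called 0. Il18 measured 14.9, 15.3 and 9.40 CPM in Tat-Amlexanox, below all Tat libraries, and Il1b 56.7, 72.6 and 41.1 CPM, which overlapped them. Tat-Senicapoc against Tat called 0 (0.409%) and Tat-Tazemetostat against Tat called 0 (0% of all genes), both with 0 unadjusted p-values under 0.05 in limma. For Il1b the 95% intervals were -1.42 to 0.62 with Amlexanox, -1.30 to 0.75 with Tazemetostat, -1.75 to 0.30 with Senicapoc and -3.27 to -1.22 with 4OI. They share the 3 Tat libraries, and the differences between compounds were not tested.

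On the Tat-Cocaine background Amlexanox (0.925% of all genes called) and Senicapoc (0.0441%) called 0 of the 10 genes in limma, with 0 unadjusted p-values under 0.05 in either. Tazemetostat raised Il1a on that background, from 2.51, 10.0 and 8.82 CPM to 15.1, 21.4 and 17.7 CPM without overlap (1.46 ± 0.40, limma FDR 0.0119, where 28.7% of all genes were called and 15.2% were higher, the first share being 1.65% once Tat-Cocaine replicate 1 was left out and 1.1% once Tat-Cocaine-Tazemetostat replicate 2 was). It was not called without Tat-Cocaine replicate 1 (0.89, limma FDR 0.136) or Tat-Cocaine-Tazemetostat replicate 2 (1.34, 0.0743). Without Tat-Cocaine replicate 3, Il1b (1.69, limma FDR 0.0165) and Il18 (1.14, 0.0460) were also called. The microglial sum was 2714 to 4299 CPM in Tat-Cocaine-Tazemetostat and 1209 to 1989 CPM in Tat-Cocaine, the neuronal sum 884 to 1345 against 1942 to 2578 CPM, the oligodendrocyte sum 165 to 262 against 438 to 1955 CPM and that of 2 oligodendrocyte precursor markers 161 to 272 against 282 to 373 CPM. None of these overlapped, and their part was not tested. Alone, Amlexanox (11.4% of all genes called), Tazemetostat (0%) and Senicapoc (0%) each called 0 of the 10 in limma. The share for Amlexanox alone ran from 1.01% without Amlexanox replicate 3 to 18.9% without Amlexanox replicate 1. It was 0% in a fit of the 2 groups alone. Without Amlexanox replicate 1, Il1r1 was lower with Amlexanox than in Control (-1.09, limma FDR 0.0275). Only Il18rap with Senicapoc had an unadjusted p under 0.05 among these (0.66, limma FDR 0.536), at 0.769, 1.43 and 1.06 CPM, above all Control libraries.

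Tat against its partner with each compound gave the following counts of higher genes, with none lower. Amlexanox gave 7 (39.6% of all genes called, 22.6% higher, and 57.1% of the called genes were higher against 46.2% under quantile normalization), including Il1r1 (2.17 ± 0.34, limma FDR 2.89e-05) and the only call for Il1r2 (0.66, limma FDR 0.0394). The Il1r2 call was lost without Amlexanox replicate 3, which was listed at 0 (0.35, limma FDR 0.323), without Tat-Amlexanox replicate 1 or 2, and with the replicate block in a fit of the 2 groups (0.0765). The same block gained Il1rl1 (1.24, 0.0315). Tazemetostat gave 5 (16.1% called, 10.4% higher, and a share of higher calls of 65% against 53.2%), Il1rn, Il1b, Il1a, Il18rap and Il1rl1, the last lost without any 1 of 4 libraries (limma FDR 0.0567 to 0.174). Senicapoc gave 6 (16% called, 10.8% higher, and a share of 67.8% against 50%), Il1rn, Il1b, Il18rap, Il18, Il1rl1 and Il1r1. There Il1rl1 was lost without any 1 of 5 libraries (0.0846 to 0.191) and Il1r1 without any 1 of 3 (0.0900 to 0.246). The tests of a changed Tat response called 0 of the 10 genes with Amlexanox (1.84% of all genes called), Tazemetostat (0%) and Senicapoc (0%), each with 0 unadjusted p-values under 0.05 in limma.

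The balance of decoy and signalling receptor was also followed. The log2 difference between Il1r2 and Il1r1 was -4.37 ± 0.09 (SD, n = 3) in Control and -5.46 ± 0.20 with Tat, a shift of -1.09 with an exact permutation p of 0.1 (two-sided), the smallest possible. With a pseudocount of 0.1 CPM the shift was -0.77. It was also negative with Tat in every compound background, from -0.75 with 4OI to -1.51 with Amlexanox, each at that same p. With a pseudocount of 0.1 CPM these ran from -0.70 with 4OI to -1.11 with Tazemetostat, and the Amlexanox value was -0.85, since Il1r2 lies near the pseudocount. Il1r2 was at 0 to 1.03 CPM over the 48 libraries. The added 0.5 CPM held its changes small, so the shifts mainly followed Il1r1. Amlexanox replicate 3, at 0 CPM of Il1r2, had the highest difference of all libraries (-3.30). Tat replicate 1 had 0.710 CPM of Il1r2 beside 47.4 CPM of Il1r1, and Control replicate 1 had 0.115 beside 12.0 CPM. Without a pseudocount the Tat and Control libraries therefore overlap, and the exact permutation p is given for 0.5 CPM only.

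The other genes of the pathway were read from 4 lists. Among 7 genes of precursor processing and release, Tat raised 4 and lowered none, and Tat-4OI against Tat lowered 6 and raised none, beside 14.6% of all genes higher with Tat and 9.48% lower with 4OI. Casp1, the protease that matures IL-1β and IL-18, stood at 5.14, 12.99 and 7.76 CPM in Control, 23.5, 40.9 and 24.9 CPM with Tat and 6.64, 13.98 and 6.42 CPM with Tat-4OI. Its log2 fold changes were 1.78 ± 0.39 with Tat (limma FDR 0.00101) and -1.71 ± 0.39 with 4OI added (0.00247). Nlrc4, an inflammasome sensor, rose by 1.69 and then fell by 1.24 on the log2 scale, and Pycard, the adaptor ASC, rose by 1.24 with Tat. Nlrp3, the best known sensor, had 0.84 with Tat (limma FDR 0.119) and fell by 1.42 with 4OI (0.0119).

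Among 14 signalling genes tested of 15, Tat raised 4 and lowered 1, beside 21.3% of all genes called, and 4OI lowered 3 and raised 1, beside 15.6%. Irak3, an inhibitory kinase-like protein of the pathway, rose from 6.40, 9.27 and 10.1 CPM to 60.0, 66.1 and 32.998 CPM (2.52 ± 0.35, limma FDR 1.71e-06). Irak2 rose by 0.97 and Myd88, the receptor adaptor, by 0.69, whereas Tollip, a negative regulator, fell by 0.18 on the log2 scale. With 4OI added Irak3 fell by 1.85, Irak2 by 0.94 and Myd88 by 0.77, and Tab3 was higher by 0.39. The kinase genes Irak1 (-0.05, limma FDR 0.799) and Irak4 (0.31, 0.323) did not pass with Tat.

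Among 12 target genes of NF-κB and IL-1 signalling tested of 13, Tat raised 10 and lowered none, and 4OI lowered 6 and raised none, to be read beside the same shares of 14.6% and 9.48%. Lcn2, the iron-binding acute phase protein lipocalin-2, went from 94.7, 315.1 and 32.95 CPM to 13561, 12755 and 8461 CPM (6.82 ± 0.79, limma FDR 6.84e-08). The chemokine genes Cxcl1 and Ccl2 rose by 5.89 and 4.89. With 4OI added Nfkbiz, which encodes the inducible IκBζ, fell by 2.04 (limma FDR 2.24e-05), Ccl2 by 2.01 (0.0289) and Tnfaip3, which encodes the NF-κB inhibitor A20, by 1.95 (0.00115). Il6 rose with Tat (1.51, limma FDR 0.0333) and did not pass with 4OI (-0.27, 0.749). Of 5 further family genes tested of 11, Tat raised Il36b (0.70) and Il18r1 (0.68), beside the same share, each at no more than 12 reads in any library of these groups. Il18bp, the soluble IL-18 inhibitor, was not changed by Tat at this threshold (-0.06, limma FDR 0.882) and fell by 1.01 with 4OI added (0.00369), as did Il18r1 by 0.63 and Il36b by 0.55, which made 3 of 5.

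**Figure D4:**
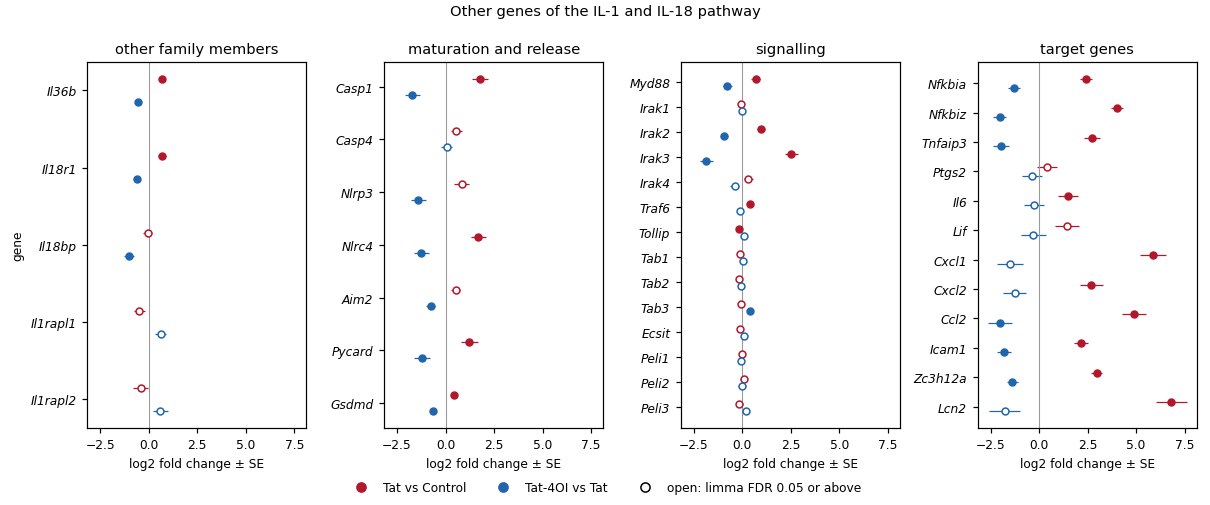
Differences of log2(CPM + 0.5) ± SE (limma) for the 38 other pathway genes tested, with Tat against Control in red and Tat-4OI against Tat in blue, filled where the limma FDR was under 0.05. Red points of the target genes lie to the right of 0 and their blue points to the left, while most signalling genes lie near 0 in both.

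Genes most like the family members over the 48 libraries were found by Pearson's r of log2(CPM + 0.5) across all 15890 genes tested, libraries that share groups, treatments and depth. Il1b was nearest to Cd72 (0.98), and Il1b and Il1rn had 0.98 with each other. Il18 was nearest to Casp1 (0.97), Il1a to Bcl2a1 (0.94), Il18rap to Cxcl13 (0.92), Il1r1 to Synpo2 (0.95) and Il1rl1 to Cxcl3 (0.87). Il1rap was nearest to Lpar1 (0.88), Rhou (0.87) and Erbb3 (0.86). These values include replicate 3 of the Cocaine group, the highest library for Il1rap (69.0 CPM), and r without it was not computed. Il33 had no gene above 0.69 (Txlnb), and its r with Il1b was -0.04.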

How the data were processed

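Strand-marking polyA libraries (NEBNext Ultra II Directional) were made, 48 in all, and the authors aligned the reads with STAR 2.7.2 after Trim Galore 0.4.5, used featureCounts (Subread 1.5.3) for the reads that mapped to 1 place, and scaled the counts by TMM in edgeR. The genome build named in the methods and in the submitters' processing notes differs, so no gene positions are given from the files. The deposited values are a normalized signal, CPM after TMM, which sum to 930399 to 1046892 per library. Among values worth under 50 reads, 84.7% to 86.8% per library came within 0.02 of a whole read, so no count test was run. The authors' group means and comparison columns (log fold change, mean level, likelihood ratio, p-value and false discovery rate) were not used, and 0 columns of other samples were present.

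From these values, log2(CPM + 0.5) was fitted with limma 3.58.1 (R 4.3.3, trend) to all 48 libraries and 16 groups, for 15890 genes at 0.5 CPM or more in at least 3 libraries, with Benjamini-Hochberg adjustment over all genes and a threshold of 0.05. At 0.5 CPM a library held 8.58 to 15.0 reads. Ratios within a library were tested by exact permutation. All 10 family genes passed the filter. The 10 genes, the pathway and marker lists and the tests were chosen with earlier results of these data known. All 10 genes were named in each comparison, with up to 3 of the largest rises and falls per pathway list for Tat against Control and Tat-4OI against Tat. Irak1, Irak4 and Il6, the Tat values of Nlrp3 and Il18bp, and the marker genes were named after their values were seen. Pairs of libraries of one group differed beyond sampling noise (chi-square per degree of freedom of 5.86 or more). Same-numbered libraries deviated together (every correlation over 0.1) in 6 comparisons, which were taken as paired. The labels do not give this pairing, and in Tat-Cocaine against Tat the same correlations ran from -0.78 to -0.14. The procedure was tested on simulated data. Alternatives were another pseudocount, no filter, quantile normalization, a replicate block, fits of fewer groups and leaving out each library. Promoters came from RefSeq (GRCr8). Some single-gene results are not reported here.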

Additional observations from a re-analysis of the deposited data

How the results depend on the processing

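Of 40 called values of family genes, 28 stayed called in every alternative tried, and no called value changed its direction. Over all alternatives of these calls, 418 of 474 stayed past the threshold and 56 did not. The cause of the changes below was not tested. With only the groups compared in the fit, Tat-Cocaine against Control had 3 called genes, and Tat-Cocaine-4OI and Tat-Cocaine-Tazemetostat against Tat-Cocaine had 0. Tat-4OI against 4OI had 1 without the filter and 1 in the 21 libraries of the 7 groups of the paper. Leaving out 1 library gave 1 to 5 calls for Tat-Cocaine-4OI against Tat-Cocaine, 1 to 2 for Tat-4OI against 4OI, 0 to 3 for Tat-Cocaine-Tazemetostat against Tat-Cocaine and 0 to 1 for Amlexanox against Control. With a pseudocount of 0.1 CPM the difference between Il1r2 and Il1r1 shifted by -0.77 for Tat against Control, 0.57 for Tat-Amlexanox against Tat, -0.85 for Tat-Amlexanox against Amlexanox, 0.61 for Tazemetostat against Control and 0.43 for Senicapoc against Control.

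With the replicate block in the fit of all libraries, 4 genes were called for Tat-Cocaine-4OI and 4 for Tat-Cocaine-Tazemetostat against Tat-Cocaine, and 2 for the change of the Tat response with 4OI (Il1rn, limma FDR 0.0142, and Il1b, 0.0443). None of these 3 comparisons met the rule for pairing. With the block in a fit of the paired groups alone, an alternative chosen after seeing the data, Tat-Amlexanox against Tat had 3. The precision is limited by 3 libraries a group and, for Il1r2, Il1rl1 and Il18rap, by levels near 0.5 CPM.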

Other observations

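Across the 16 groups, replicate 2 was the highest of its 3 libraries in 14 groups for Il1b, 14 for Il18, 13 for Il1rn, 10 for Il1a and 10 for Il1rl1. The summed microglial markers were highest in replicate 2 in 15 of 16 groups, and the summed neuronal markers in 0 of 16. Il1r1 was highest in replicate 2 in 5 groups and Il1rap in 3. The labels do not say what a replicate number stands for, and the part of microglial RNA in these levels was not tested.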
